A study of Mus musculus with 21 samples.

Results

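Chromatin accessibility was described at 5827 distal sites that were open in every one of 18 individual mouse livers. The sites were chosen from the deposited peak lists. Peaks of the 18 livers that overlapped by 1 bp or more were merged into 68362 regions, and the members are the regions that held a peak in all 18 livers and lay more than 1 kb from any protein-coding transcription start. Of the 11748 regions with a peak in all 18 livers, 5921 lay within 1 kb of a start and are used here for comparison. Of 53604 distal regions in all, 4801 had a peak in 17 livers and 13227 in a single liver. Having a peak in every liver and lying away from a start are therefore how the sites were chosen and not findings.

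The livers came from untreated, pituitary-intact male CD-1 (ICR) mice, an outbred stock, aged 8 to 10 weeks. Each liver was placed in a class by the STAT5 DNA-binding activity of its extract at the time of death, read from a gel mobility shift assay, and each was assayed on its own by DNase-seq, which sequences the ends of short fragments that DNase I releases from open chromatin. The 8 STAT5_High livers were taken at a peak of that activity and the 10 STAT5_Low livers at a trough, and no liver received any agent or carried any engineered allele. A further 3 livers of the series, marked as outliers by the submitters because their accessibility resembled the other class, are not analysed here, so the classes were in part selected on accessibility itself. Sample labels carry the prefixes G74A (2 STAT5_High and 5 STAT5_Low livers), G92 (3 and 2) and G99 (3 and 3), called collections below; the labels do not say what a prefix stands for. Whole liver was assayed, so a change in the share of cells that are open at a site and a change in openness per cell cannot be told apart.

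STAT5 is a transcription factor that is phosphorylated when growth hormone binds its receptor, moves to the nucleus and binds palindromic DNA elements. In male rodents the pituitary releases growth hormone in pulses, and liver STAT5 activity follows these pulses, while in females it is more continuous. Open sites far from promoters are the places where enhancers and insulators are usually found, and in hepatocytes many of them bind factors such as HNF4A, forkhead proteins, C/EBP and ONECUT (HNF6) proteins.

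The sequences below are those around the sites with the largest class differences, since these carry the main contrast. Each runs 50 bases to either side of a central base, on the plus strand of the mm9 (NCBIM37) reference, and differences between that reference and CD-1 mice were not considered. The first set comes from the 5 sites with the largest excess in STAT5_High livers, named by the gene they overlap or lie nearest to, with the STAT5 motif TTCNNNGAA in capitals at the centre. Only that motif is capitalised in this set. The Inhba window also holds the HNF4 word CAAAGTCCA and the Clec16a window a D-box (TTAGGTAA), both left in lower case.
Socs2 chr10:94892965-94893065: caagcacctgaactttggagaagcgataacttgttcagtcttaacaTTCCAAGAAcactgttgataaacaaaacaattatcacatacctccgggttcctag
Wdr72 chr9:74370198-74370298: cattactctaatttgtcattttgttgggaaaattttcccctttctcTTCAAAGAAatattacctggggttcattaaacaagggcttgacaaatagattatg
Cradd chr10:94615373-94615473: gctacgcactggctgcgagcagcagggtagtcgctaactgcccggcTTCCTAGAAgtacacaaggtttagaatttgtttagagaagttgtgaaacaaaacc
Inhba chr13:16408636-16408736: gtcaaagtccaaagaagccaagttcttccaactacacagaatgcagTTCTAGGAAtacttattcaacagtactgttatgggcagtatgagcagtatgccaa
Clec16a chr16:10676818-10676918: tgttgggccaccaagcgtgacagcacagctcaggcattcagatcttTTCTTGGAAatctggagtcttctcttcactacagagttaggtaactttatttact

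The second set comes from 3 of the sites with the largest excess in STAT5_Low livers. Each is a window around the site's summit, with capitals for an E-box (CACGTG) in the Nrsn2 site and a D-box (TTANGTAA) in the Ttc8 site. The Pck1 window held none of the 12 motifs searched and is wholly in lower case.
Nrsn2 chr2:152189381-152189481: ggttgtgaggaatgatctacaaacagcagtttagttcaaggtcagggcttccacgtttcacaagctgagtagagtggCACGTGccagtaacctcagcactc
Ttc8 chr12:100203787-100203887: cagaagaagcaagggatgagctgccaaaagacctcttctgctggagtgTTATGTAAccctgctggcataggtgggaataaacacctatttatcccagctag
Pck1 chr2:172985239-172985339: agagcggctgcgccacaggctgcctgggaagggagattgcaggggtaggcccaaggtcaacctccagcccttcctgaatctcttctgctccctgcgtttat

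A site's level is its highest pileup, the number of extended reads stacked at the summit, scaled to the tags in the liver's file header (RPM) and divided by the liver's median over the 5827 members. A scaled pileup of 1 is thus the median member of that liver. Libraries held 12890880 to 23395665 tags, and the median member had 26 to 76 reads at its summit depending on the liver. Fragment counts carry no molecular identifiers. The intervals on shares given here count sites as if independent and leave out variation between livers. Before scaling, the median member had 3.17 ± 0.753 RPM in STAT5_High (SD, n = 8) and 3.11 ± 0.501 in STAT5_Low livers (SD, n = 10), a difference well inside the spread of either class. STAT5_High replicate 4 stood apart with 18673 peaks, against 29626 to 45144 in the other livers, and had the lowest median of 1.67 RPM. That liver also sets the boundary of the set, because 4172 of the 4801 distal regions with a peak in 17 livers lacked a peak in it alone. Members had a median of 3.09 RPM and a width of 881 bp, and regions open in 17 livers had 1.88 and 790 bp. At the other boundary, the 161 members up to 500 bp beyond the 1 kb limit had a median of 3.94 and the 162 regions up to 500 bp short of it had 3.61.

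Some listed hepatocyte genes had a member nearby, and almost none of the listed markers of other liver cells did. Other regions were not compared in this way. Of 14 hepatocyte genes, 7 had a member within 10 kb, among them Cps1, the first enzyme of the urea cycle, and the fibrinogen genes Fga, Fgb and Fgg. Alb, Apoa2, Cebpa, Serpina1a, Tat, Tdo2 and Ttr had no member. None of the macrophage, stellate, cholangiocyte or lymphocyte markers had one, and of 6 endothelial markers only Pecam1, an adhesion molecule of blood vessel lining, did. By their centres, 55.9% of members were intergenic and 41.7% intronic, with a median distance of 21.4 kb to the nearest protein-coding start. The highest levels of all were 3 sites on chromosome M next to mt-Cytb, a subunit of respiratory complex III, and mt-Nd1, a subunit of complex I, with mean scaled pileups of 24.9 to 39.0. Mitochondrial DNA has no nucleosomes and many copies per cell, and none of the 3 sites was called different between classes. Among nuclear sites the highest means were 7.42 near Wdr5, a subunit of histone methyltransferase complexes, 6.96 near Ifna13, an interferon gene, and 5.62 near Ick, a kinase of ciliated cells.

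Some members hardly varied. The steadiest lay 15.3 kb from Insig1, which retains the sterol sensor SCAP in the endoplasmic reticulum. At this site (chr5:28381206-28382673) STAT5_High livers ran from 2.72 through a median of 3.30 to 3.84 and STAT5_Low livers from 2.87 through 3.22 to 3.58. The STAT5_Low range lay inside that of STAT5_High, and its SD over the 18 livers was 0.14 on the log2 scale. The next steadiest lay at Bcl9l, a Wnt coactivator, and at Gm6843, Bin2, Hs6st1 and 4930528F23Rik, with SDs of 0.14 to 0.15. The site in Hs6st1, a heparan sulfate sulfotransferase, held the motif copy TTCCAAGAA, the same 9 bases as in the Socs2 site printed above, 1 bp from the summit. Its mean scaled pileup was 1.37 ± 0.133 in STAT5_High and 1.45 ± 0.165 in STAT5_Low livers (SD, n = 8 and 10).

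The first question of the design is which of these constant sites differed in size between livers taken at high and at low STAT5 activity. In limma's moderated test over all 11748 regions open in every liver, with Benjamini-Hochberg adjusted p of at most 0.05, 627 members (10.8%) were higher in STAT5_High livers, against a background of 6.15% of all regions tested. Another 293 members (5.03%) were higher in STAT5_Low livers, against a background of 3.82%. The classes did not overlap in any liver at 150 members on the STAT5_High side (2.57%, background 1.43%) and 10 on the STAT5_Low side (0.172%, background 0.102%). A difference of 2-fold or more was called at 221 members higher in STAT5_High (3.79%, background 2.05%) and at 5 higher in STAT5_Low (0.0858%, background 0.0426%). The median fold was 1.81 among sites higher in STAT5_High, with a range of 1.27 to 5.54, and 1.47 among sites higher in STAT5_Low, with a range of 1.29 to 2.22. Of the 5921 sites within 1 kb of a start, 95 (1.60%) were higher in STAT5_High and 156 (2.63%) in STAT5_Low.

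The STAT5_High side was the firmer of these counts. All fitted sites had a median log2 difference of -0.17 and the members one of -0.08, and the choice of scaling moved the balance. STAT5_High accounted for 68.2% of calls as given above, 77.8% with median-of-ratios factors, 86% after quantile normalisation, 90.8% after cyclic loess and 94% with tag depth as the only scaling. Under those 5 scalings and under division by the median over all fitted sites, which was added after the values were seen, 407 of the 627 were called throughout, but only 24 of the 293. Sites near starts stood lower against the members in STAT5_High livers, with overlapping ranges, since their median pileup was 1.13 ± 0.144 times that of the members in STAT5_High (SD, n = 8) and 1.31 ± 0.130 times in STAT5_Low livers (SD, n = 10). That ratio ran from 0.93 to 1.16 in G92, 1.12 to 1.43 in G99 and 1.28 to 1.44 in G74A livers. The classes hold these collections in unlike shares. Within G92 and within G99 each STAT5_High liver was below each STAT5_Low liver. The part of the ratio in the STAT5_Low calls was not tested. With the deposited fold enrichment, the summit signal over the local background of the same library, in place of pileup, 334 members were higher in STAT5_High, 311 of them among the 627, and 74 in STAT5_Low, 30 of them among the 293. Differences were smaller on that measure at many sites, and it is given below for the sites described in detail where it ended their call. No call was made at 4907 members, and at 1773 of these the 95% interval of the difference lay within 0.5 on the log2 scale in either direction.

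**Figure D1:**
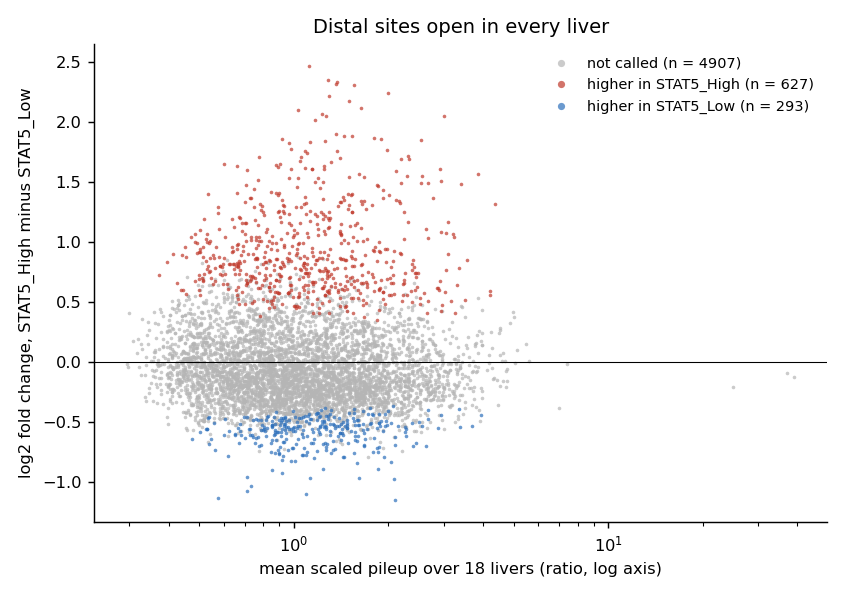
Each point is 1 of the 5827 distal sites, with its mean scaled pileup over the 18 livers on a log axis and the log2 difference of STAT5_High minus STAT5_Low on the other, coloured where called at an adjusted p of at most 0.05. The 627 sites higher in STAT5_High reach a 5.54-fold difference and the 293 higher in STAT5_Low a 2.22-fold difference, and both kinds occur at low and at high levels.

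Of the 12 sites with the largest excess in STAT5_High livers, the leading one lay 239 kb from Wdr72, a gene known for its part in tooth enamel (chr9:74370015-74370776). It is shown first for its size and not for any link to that gene. Its scaled pileup in STAT5_High livers ran from 1.48 through a median of 1.96 to 2.70, and in STAT5_Low livers from 0.269 through 0.337 to 0.642. The lowest STAT5_High liver was above every STAT5_Low liver, and the site was among the weak members in STAT5_Low livers yet above the median member in each STAT5_High liver. The fold was 5.54 (log2 difference 2.47, SE 0.17, adjusted p = 3.28e-10 by limma). A second site nearest Wdr72 (chr9:74179848-74180641) was also among the 12, with a fold of 4.18 and an adjusted p of 3.68e-09, and it was the only one of them without a STAT5 motif in its window.

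Socs2 encodes a suppressor of cytokine signalling that is induced by growth hormone and dampens signalling from its receptor. The site 13.0 kb from it (chr10:94892838-94893487) ran from 1.80 through 2.49 to 3.53 in STAT5_High livers and from 0.342 through 0.470 to 0.806 in STAT5_Low livers. No liver of either class reached the other class. In unscaled reads at the summit this was 70 to 180 reads in STAT5_High and 13 to 54 in STAT5_Low livers, and the scaled fold was 4.99 (log2 difference 2.32, SE 0.175, adjusted p = 1.05e-09 by limma). A second member 8.9 kb from Socs2 (chr10:94888710-94889647), with the motif copy TTCTGAGAA, ran from 1.92 to 2.86 in STAT5_High and from 0.711 to 1.10 in STAT5_Low livers. Its classes did not overlap either, at a fold of 2.62 and an adjusted p of 1.01e-08. By fold enrichment the log2 differences were 0.99 at the first site, still called, and 0.06 at the second, with an adjusted p of 0.742.

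Cyp7b1 encodes the oxysterol 7-alpha-hydroxylase of the acidic bile acid pathway and is more highly expressed in male than in female mouse liver. The site 7.6 kb from it (chr3:18150984-18151705) ran from 1.65 through 2.30 to 5.04 in STAT5_High and from 0.289 through 0.533 to 0.967 in STAT5_Low livers. The classes did not overlap, the fold was 4.52 and the adjusted p 6.09e-08 by limma, and the highest value came from STAT5_High replicate 4. The remaining 8 of the 12 lay nearest to or inside Cradd, an adaptor of cell death signalling, Inhba, a subunit of activin, Clec16a, which acts in endosome and mitochondrial turnover, Eps15, an endocytosis adaptor, Adck5, Mtss1, an actin- and membrane-binding protein, Nek7, a kinase needed for inflammasome assembly, and Olfr16, an olfactory receptor. Their folds ran from 4.14 to 5.10. Only Inhba and Eps15 had overlapping classes, Inhba through a STAT5_High liver at 0.692 and Eps15 through STAT5_Low replicate 10 at 2.77. All 12 were called in every scaling named above and by fold enrichment.

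**Figure D2:**
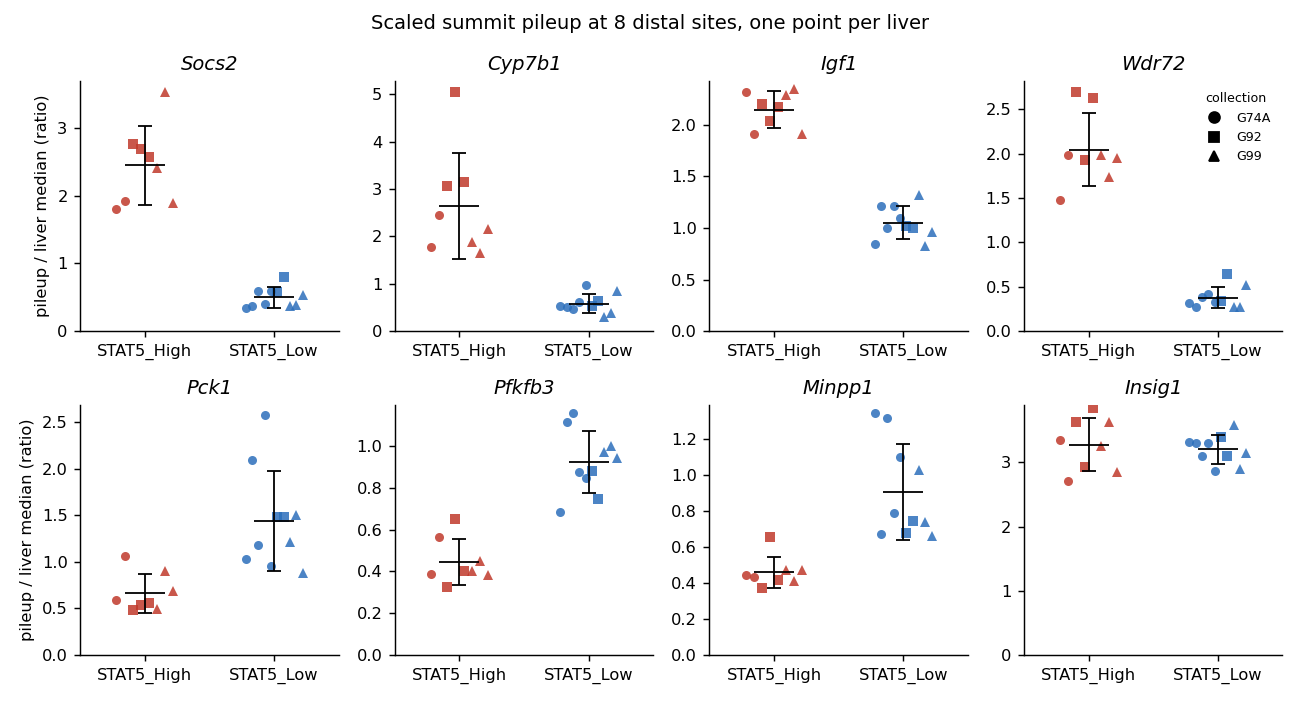
Scaled pileup (1 is the liver's median member) at 8 distal sites, 1 point per liver with the marker showing the collection and bars for the class mean ± SD. Socs2, Cyp7b1, Igf1 and Wdr72 sites are higher in STAT5_High livers, Pck1, Pfkfb3 and Minpp1 sites are higher in STAT5_Low livers, and at the Insig1 site the STAT5_Low range lies inside that of STAT5_High.

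The sites higher in STAT5_High livers were rich in the STAT5 motif. In windows of 300 bases centred on the median summit, read on both strands, TTCNNNGAA stood in 330 of the 627 (52.6%, 95% Wilson interval 48.7 to 56.5%). It stood in 13 of the 293 sites higher in STAT5_Low (4.44%, 2.61 to 7.44%) and in 524 of the 4907 sites not called (10.7%, 9.85 to 11.6%). Over all 5827 members the share was 14.9%, over all 68362 regions 12.2%, and over sites within 1 kb of a start 7.36%. It was 9.19% over distal regions with a peak in 17 livers and 13.1% over those with a peak in 1 liver. Most regions of 17 livers, 4172 of 4801, lacked a peak in STAT5_High replicate 4 alone. The share over members thus depends in part on a peak in that STAT5_High liver. The 407 sites called in every scaling held the motif in 234 cases (57.5%, 52.6 to 62.2%). Of 942 matches in the members, 29 (3.08%) overlapped a match to another motif searched. These shares describe letters in the reference, and no binding was measured.

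The difference grew with the number of copies and with closeness to the summit. The median log2 difference was -0.11 at the 4960 members without the motif, 0.32 at the 793 with 1 copy and 0.63 at the 74 with 2 or more. Calls higher in STAT5_High made up 5.99%, 35.7% and 63.5% of these, and calls higher in STAT5_Low 5.65%, 1.64% and 0% in the same order. With the nearest copy 0 to 25 bp from the summit, 53.3% of 180 members were higher in STAT5_High. The share was 42.5% of 181 at 26 to 50 bp, 34.0% of 241 at 51 to 100 bp and 28.3% of 265 at 101 to 150 bp. The 3 bases inside the palindrome went with the share too. It was 57.3% of 157 members with C, any base and G in the spacer (TTCCNGGAA), 50.4% of 121 with T, any base and A (TTCTNAGAA), and 9.09% of 44 with A, any base and T (TTCANTGAA). With any other spacer it was 32.2% of 544. These splits of the motif were made with the values known.

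**Figure D3:**
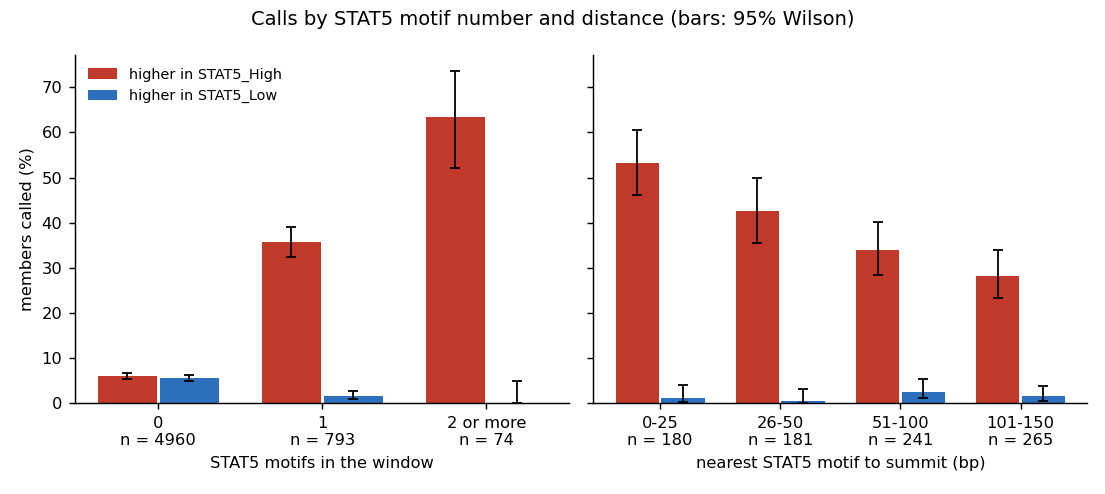
Share of distal sites called higher in STAT5_High and higher in STAT5_Low, by the number of STAT5 motif copies in the 300-base window and by the distance of the nearest copy from the summit in bp, with 95% Wilson intervals. The share higher in STAT5_High rises from 5.99% without a copy to 63.5% with 2 or more, and falls from 53.3% to 28.3% with distance.

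The motif went with the difference in each collection. The median log2 difference at members with the motif was 0.24 (G74A), 0.41 (G92) and 0.33 (G99), against -0.09, -0.08 and -0.12 at members without it. Near starts the motif was rarer and the calls fewer, with 8.49% of 436 such sites holding it higher in STAT5_High and 1.06% of the 5485 others. The rearranged control word CTTNNNAAG, with the same bases in another order, stood in 11.6% of sites higher in STAT5_High, 10.2% of sites higher in STAT5_Low and 11.3% of those not called.

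The other motifs differed less. The E-box CACGTG, bound by clock proteins, MYC family factors and USF, stood in 45 of the 293 sites higher in STAT5_Low (15.4%, 11.7 to 19.9%), in 5.10% of those higher in STAT5_High and in 7.87% of those not called. It stood in 6.88% of all regions and in 12.4% of sites near starts, and of the 24 STAT5_Low sites called in every scaling 6 held it. The HNF4 word CAAAGTCCA stood in 6.48%, 3.35% and 3.24% of sites higher in STAT5_Low, higher in STAT5_High and not called, against 1.88% of all regions. ONECUT (TATTGAT) stood in 7.17%, 12.1% and 9.13% in that order, against 6.31% of all regions. Forkhead (TGTTTAC) and AP-1 (TGANTCA) words stood in 10.3% and 17.02% of all members, against 7.44% and 11.7% of all regions, with overlapping intervals for the called classes. Over all members HNF4 and ONECUT stood in 3.42% and 9.35%. Distal regions with a peak in 17 livers held forkhead in 10.1%, AP-1 in 8.62%, HNF4 in 3.71% and ONECUT in 7.17%. In distal regions with a peak in 1 liver the shares were 7.0%, 15.95%, 1.31% and 6.62% in the same order. C/EBP (TTGCNNCAA), D-box and ETS (CCGGAAGT) words and the HNF1 and CTCF motifs stood in 3.14%, 6.20%, 0.96%, 0.72% and 0.81% of members.

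**Figure D4:**
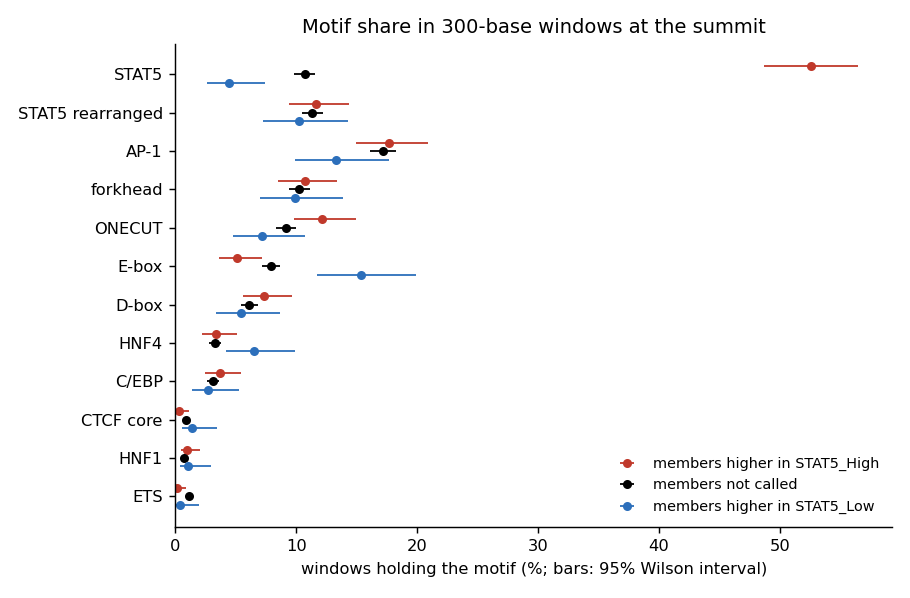
Share of distal sites whose 300-base window holds each of 12 motifs, for sites higher in STAT5_High, not called and higher in STAT5_Low, with 95% Wilson intervals. STAT5 stands in 52.6%, 10.7% and 4.44% and the E-box in 5.10%, 7.87% and 15.4% of these sites.

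Sites higher in STAT5_High also lay farther from genes' starts and in sequence poorer in G and C. Their median distance to a protein-coding start was 31.7 kb, against 20.8 kb for sites not called and 17.8 kb for sites higher in STAT5_Low, given as a description with no test. More than 50 kb away lay 37.6%, 27.3% and 24.6% of them, and the median GC content was 44%, 46.7% and 48%. Widths were alike, with medians of 891, 878 and 907 bp. With the members cut into 5 equal groups by level, the share higher in STAT5_High ran from 6.86% in the lowest group to 13.2% in the second highest.

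The largest differences in the other direction were smaller. Pck1 encodes phosphoenolpyruvate carboxykinase, which commits carbon to glucose synthesis. The site overlapping it (chr2:172984523-172986078) ran from 0.478 through 0.575 to 1.06 in STAT5_High and from 0.875 through 1.34 to 2.58 in STAT5_Low livers. All STAT5_High livers except replicates 2 and 7 lay below every STAT5_Low liver. The site was 2.13-fold higher in STAT5_Low (log2 difference -1.09, SE 0.198, adjusted p = 0.000373 by limma). G6pc, the glucose-6-phosphatase that releases glucose from the liver, had a member 0.6 kb away (chr11:101239847-101241011) that ran from 0.538 to 1.78 in STAT5_High and from 1.31 to 3.76 in STAT5_Low livers, a 1.94-fold difference with an adjusted p of 0.00303. By fold enrichment neither was called, at log2 differences of -0.16 and -0.12. The G6pc site had log2 differences of -0.75, -2.21 and -0.32 in G74A, G92 and G99, with an interaction adjusted p of 0.0795 by limma. Its call was also lost when G92 was left out.

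Pfkfb3 makes and breaks down fructose 2,6-bisphosphate, the activator of glycolysis. Its intronic site (chr2:11400283-11401115) ran from 0.326 through 0.40 to 0.654 in STAT5_High and from 0.684 through 0.913 to 1.16 in STAT5_Low livers. The classes did not overlap, at a fold of 2.096 and an adjusted p of 1.52e-05 by limma, the smallest among the 12. The largest fold, 2.22, was 4.6 kb from Nrsn2, a neuronal vesicle protein (chr2:152189226-152189842), where the means were 1.28 ± 0.502 in STAT5_High and 2.76 ± 0.903 in STAT5_Low livers (SD, n = 8 and 10). A second Nrsn2 member had a fold of 1.96. Ttc8, a subunit of the BBSome that carries cargo to cilia, Bhlhe41, a repressor in the circadian clock, Npc1, which exports cholesterol from lysosomes, and Dnahc8, an axonemal dynein chain, each had 1 site, with folds of 2.19, 2.05, 1.85 and 1.95. The last 3 of the 12 lay near Minpp1 and are described below with their neighbours. None of the 12 held a STAT5 motif, classes were apart at 3, and 11 were called in every scaling, Dnahc8 being the exception. The Dnahc8 call was also lost without STAT5_High replicate 2, 3, 4, 7 or 8 or STAT5_Low replicate 1, 3, 7, 8, 9 or 10. By fold enrichment both Nrsn2 sites and the Npc1 and Dnahc8 sites were no longer called, at log2 differences of -0.10 to -0.28, and the Bhlhe41 call was lost in an exact Wilcoxon test.

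**Figure D5:**
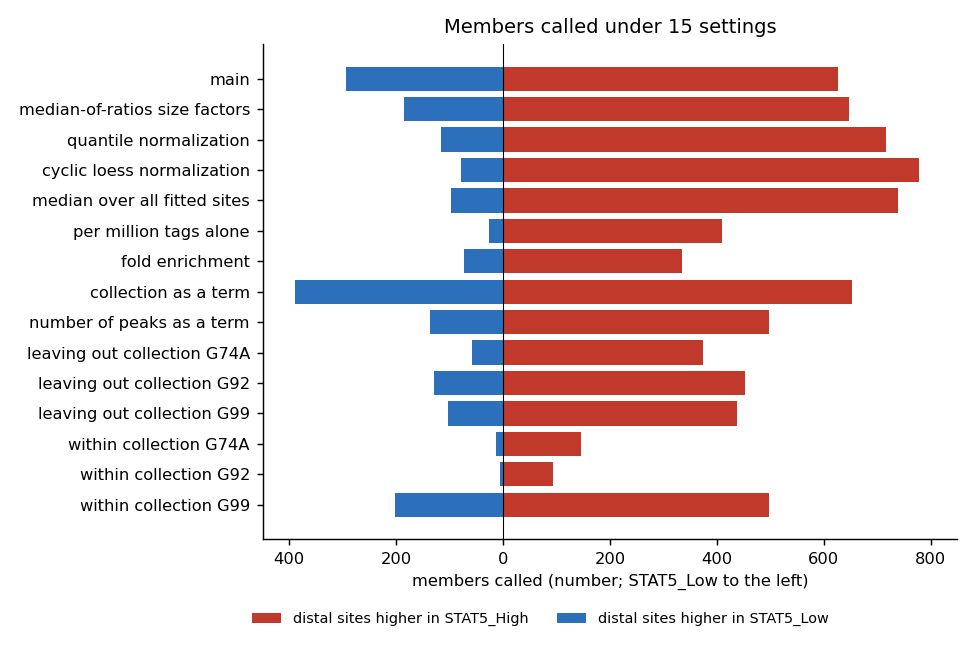
Number of distal sites called higher in STAT5_High and, to the other side of 0, higher in STAT5_Low under 15 settings of scaling, measure, covariates and collections. The STAT5_High count is 627 as reported and 334 with fold enrichment. The STAT5_Low count is 293 as reported and runs from 5 within G92 alone to 390 with collection as a term.

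Gene lists of liver pathways were read through the members that overlapped a listed gene or lay within 10 kb of it. Each list's count stands against the 10.8% of all members that were higher in STAT5_High and the 5.03% that were higher in STAT5_Low, and against the median log2 difference of -0.08 over all members; with so few members per list, a count of 1 or 2 is near those shares. The STAT5 target list, which covers the growth hormone axis, had 15 members at 6 of its 15 genes, of which 6 were higher in STAT5_High and 2 in STAT5_Low, with a median log2 difference of 0.34. Igf1, the circulating growth factor that liver makes under growth hormone, had 5 members, 3 of them higher. The site chr10:87378063-87379076 ran from 1.91 through 2.18 to 2.35 in STAT5_High and from 0.828 through 1.01 to 1.32 in STAT5_Low livers. Its classes did not overlap, at a fold of 2.06 and an adjusted p of 5.37e-07, and no STAT5 motif stood in its window. The site chr10:87368833-87370047, with 1 motif copy, had the same fold of 2.06 and an adjusted p of 1.57e-06. The third, chr10:87347920-87348921, reached an adjusted p of 0.0363 at a fold of 1.48, and its call was lost without STAT5_High replicate 4, 5 or 6 or STAT5_Low replicate 1, 2, 3, 4, 5 or 10. By fold enrichment none of the 3 was called, at log2 differences of 0.11, 0.08 and -0.20 in the order given.

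Ghr encodes the growth hormone receptor, and its members divided. The list held 1 Ghr site in STAT5_Low's favour, at a fold of 1.42 and an adjusted p of 0.0402, which was not called in every scaling nor by fold enrichment and was lost without STAT5_High replicate 2, 3, 4, 5 or 7 or STAT5_Low replicate 2, 3, 5, 7, 8 or 9. A run of 5 members between 18 and 56.4 kb from Ghr (chr15:3551489-3590884) was higher in STAT5_High throughout, with log2 differences of 0.96 to 1.70, and 4 of the 5 were also called by fold enrichment. The farthest of them ran from 0.692 to 2.84 in STAT5_High and from 0.442 to 1.12 in STAT5_Low livers, where the low end of STAT5_High was replicate 4. Prlr, the prolactin receptor that shares STAT5 signalling, had 2 sites higher in STAT5_High at folds of 1.47 and 1.55, and both changed sign with fold enrichment. Stat5a, which encodes one of the 2 STAT5 proteins, had a site higher in STAT5_Low at a fold of 1.59 and an adjusted p of 0.00895, or 0.0627 by fold enrichment.

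Genes expressed differently between the sexes in mouse liver were called in shares near those over all members, 10.8% and 5.03%. Of 18 members at 11 male-biased genes, 2 were higher in STAT5_High, the Cyp7b1 site and a site in Lifr, the leukaemia inhibitory factor receptor, at a fold of 1.52 and an adjusted p of 0.00345, which became 0.895 by fold enrichment. Of 6 members at 6 female-biased genes, 1 was. Median log2 differences were 0.16 and -0.11 for the 2 lists.

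Among genes of hepatocyte function, 3 of 12 members were higher in STAT5_High and 0 higher in STAT5_Low, where all members gave 10.8% and 5.03%. The site 0.3 kb from Fgb, a fibrinogen chain (chr3:82842794-82845858), ran from 1.85 through 3.45 to 6.94 in STAT5_High and from 1.04 through 1.26 to 1.72 in STAT5_Low livers. The classes did not overlap, at a fold of 2.92 and an adjusted p of 8.59e-06. By fold enrichment it was not called, at a log2 difference of 0.20. Another at Fgg had a fold of 1.53 by pileup, and by fold enrichment it was called in the opposite direction, with a log2 difference of -0.50 and an adjusted p of 0.0145. In the acute phase list 1 of 11 members was called, in reach of both Col27a1 and Orm1, an orosomucoid secreted in inflammation, at a fold of 3.02 and an adjusted p of 0.000207. None of 8 members at immediate early and stress genes passed the test, the nearest being Hspa1l, a heat shock protein, at an adjusted p of 0.0517. The Pecam1 member, the only endothelial one, was not called at an adjusted p of 0.269.

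Metabolic lists held calls in both directions, to be set beside 10.8% higher in STAT5_High and 5.03% higher in STAT5_Low over all members. Of 15 members at glucose and amino acid genes, 4 were higher in STAT5_Low and 0 in STAT5_High, with a median log2 difference of -0.33. They lay at Pck1, G6pc, Asl, which cleaves argininosuccinate in the urea cycle, and Hal, the histidine ammonia-lyase, the last 2 at folds of 1.44 and 1.66. Of 10 members at bile acid and sterol genes, 2 were higher in STAT5_High and 3 in STAT5_Low. Cyp7a1, the rate-limiting enzyme of bile acid synthesis, was among the former at a fold of 1.88 and an adjusted p of 0.0037. Cyp8b1, the sterol 12-alpha-hydroxylase, and the sterol exporters Abcg5 and Abcg8 were among the latter. Of the 2 Cyp8b1 sites, at folds of 1.43 and 1.47, the first changed sign with fold enrichment and the second was no longer called. Of 20 members at lipid genes 3 were higher in STAT5_High, among them one in Cpt1a, which admits fatty acids to mitochondria, at a fold of 2.24 with no overlap of the classes, and 1 was higher in STAT5_Low, shares near those of all members.

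Clock genes held calls in both directions. Of 29 members at 11 clock genes, 6 were higher in STAT5_Low and 2 in STAT5_High, against 5.03% and 10.8% of all members. Their median log2 difference was -0.23, where that of all members was -0.08 and 2393 of the 5827 members had a positive difference. The former lay at Bhlhe41, Nr1d1, the REV-ERB alpha repressor, Hlf, a PAR bZIP factor that binds D-boxes, with 2 sites, and Rora, with 2 sites. Of these sites higher in STAT5_Low, only the Bhlhe41 site was called in every scaling. Rora, a nuclear receptor that activates clock genes, held 11 members and was called in both directions. Its site chr9:69029046-69029771 ran from 1.02 to 2.09 in STAT5_High and from 0.50 to 1.14 in STAT5_Low livers, a 2.36-fold difference with an adjusted p of 5.28e-06, while chr9:68957711-68958718 was 1.79-fold higher in STAT5_Low at an adjusted p of 0.0032. By fold enrichment the first of these was still called, the other Rora and both Hlf sites were not, and one Hlf site changed sign. The Rora site of chr9:68673065-68674317 lost its call without STAT5_High replicate 2, 4 or 5 or STAT5_Low replicate 2, 5 or 8. The labels do not give the hour of each liver's collection, and its part in these sites was not tested. At liver transcription factors 2 of 30 members were higher in STAT5_High, including one at Nr1h4, the bile acid receptor FXR, at a fold of 1.78, and 4 in STAT5_Low, at Nfia, Nfib, Nr1i3 and Rxra. Among these called sites only the one at Nr1h4 was called in every scaling, and the Nr1i3 call was lost by fold enrichment.

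Some called members stood side by side. Of 5805 pairs of neighbouring members, 132 were both higher in STAT5_High, 28 both higher in STAT5_Low and 32 were called in opposite directions. With 10.8% and 5.03% of all members called, some such pairs arise in any order, and these counts were not tested against that. The median gap was 36.3 kb between neighbours both higher in STAT5_High, against 107 kb between any neighbours. The following runs were picked after the values were seen. All 5 members lying 71.8 to 99.6 kb from Phlda1, a pleckstrin-homology protein of growth control (chr10:111017481-111046499), were higher in STAT5_High, with log2 differences of 0.51 to 1.25. By fold enrichment 1 of the 5 was called and 2 changed sign, and 1 lost its call without STAT5_High replicate 5. Of 7 members nearest to Ly6f or 9030619P08Rik (chr15:75136358-75232773), 5 were higher in STAT5_High, up to a log2 difference of 2.02, and by fold enrichment 2 of the 5 were still called. All 4 members lying 11 to 36 kb from Minpp1, an inositol polyphosphate phosphatase (chr19:32600885-32626648), were higher in STAT5_Low, with log2 differences of -0.75 to -0.95.

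The Minpp1 run is the clearest on the STAT5_Low side. Its site chr19:32606633-32607583 ran from 0.429 through 0.569 to 0.714 in STAT5_High and from 0.732 through 1.11 to 1.23 in STAT5_Low livers. The classes did not overlap there nor at chr19:32624819-32625410. By fold enrichment the site chr19:32606633-32607583 was no longer called, at a log2 difference of -0.33 and an adjusted p of 0.08 by limma. On that measure 2 of the 4 stayed called, chr19:32624819-32625410 and chr19:32625875-32626648, with adjusted p of 0.0147 and 0.0196. By gene, Arid5b, an AT-rich interaction domain factor, had the most sites higher in STAT5_High, 4 of 6, followed by Cmah, Igf1, Kcnt2 and Zbtb20 with 3 each. Among the 10 genes with the most members, Fgfr2, Mtss1, Gpr98 and Maml3 held 7 to 9 members and 0 calls, and the other 6 held at least 1 call each. The largest number, 26, belonged to Gm20388, a gene model of 4435 kb, with 1 call in each direction.

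Whether the class difference was the same in the 3 collections was the last question. Of the 627 sites higher in STAT5_High, 618 had the same sign in all 3, as did 289 of the 293 higher in STAT5_Low. Median log2 differences were 0.70, 0.92 and 0.83 in G74A, G92 and G99 for the former and -0.41, -0.69 and -0.46 for the latter. The calls were made over these same livers, so this agreement is in part built in. It does not show that the difference was the same in each collection. Of the 4907 members not called, 1930 also had the same sign in all 3. Called within 1 collection alone, where no more than 7 livers enter, 146 and 13 members passed for G74A, 94 and 5 for G92, then 497 and 202 for G99. Among the 627 and 293 were 145 and 10 of these for G74A, 91 and 4 for G92, and 418 and 68 for G99. Collections themselves differed at 1820 members (31.2%), against a background of 47.3% of all regions tested, and with collection as a term in the fit 652 members were higher in STAT5_High and 390 in STAT5_Low.

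The F-test of the interaction passed at 4 members, against a background of 0.034%, while 597 had an unadjusted p below 0.05. In all 4 the largest of the 3 differences in size was that of G92, and all were named after their values were seen. A site in Zbtb20, a zinc finger repressor expressed in liver (chr16:43168466-43170146), had log2 differences of 0.13, 2.58 and 1.20 in G74A, G92 and G99, with an interaction adjusted p of 0.0469. A site in Il23r, a cytokine receptor subunit (chr6:67387655-67388428), had 0.18, 2.22 and 0.19 at the same adjusted p; its class difference over all livers was called at 0.0341, was not called by fold enrichment (0.179), and was lost without STAT5_High replicate 3, 4 or 5 or STAT5_Low replicate 1, 3, 7 or 9. At Saa1, a serum amyloid protein of the acute phase (chr7:53993727-53995519), the 3 values were 0.06, 1.57 and -0.36, and in Plcg2, a phospholipase C (chr8:120118626-120119325), 0.45, -1.65 and 0.07, both at an adjusted p of 0.0307. Leaving out single livers gave between 0 and 10 such sites, 0 without STAT5_High replicate 1, 2, 5, 6 or 7 or STAT5_Low replicate 1, 3, 6, 7 or 10, and 10 without STAT5_High replicate 3.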

How the data were processed

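DNase-seq signal was analysed in 18 livers from the peak lists that the authors deposited, 1 per liver. Per the file headers, peaks were called with MACS2 2.1.0.20150731 on uniquely mapped reads, with a shift of -100, an extension of 200, a q cutoff of 0.05, all duplicates kept and no control. Bowtie2 and the build mm9 come from the submitters' processing notes. Of the deposited columns, the pileup signal (reads at the summit, not scaled between libraries), the fold enrichment ratio over local background and the −log10 q-value were used, and 2 lists of reads pooled by class served as a check: every member had a peak in both. No per-sample column was left without a label (0 unused).

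The members and all lists and tests were chosen with earlier results of these data known. Regions, starts (GENCODE vM1 on NCBIM37) and sequences were handled in Python 3.11.15 with pandas 2.3.3, numpy 2.4.6, scipy 1.17.1 and pysam 0.24.0, and figures in matplotlib 3.10.9. Log2 scaled pileup (pseudocount 0, no filter) of all 11748 regions was fitted with limma 3.58.1 (R 4.3.3; trended empirical Bayes) by class, with no covariate, and Benjamini-Hochberg adjustment at 0.05. The procedure was tested on simulated data whose noise was independent and held no collection effect. In the livers collections differed at 47.3% of all regions tested, which that simulation leaves out. The labels say the livers are from individual mice, which are the replicates. Every member had a value in every liver, so none was dropped or imputed. Sites named were the 12 with the largest change per direction, the 6 highest, the 6 steadiest and the member with the smallest p for each gene list, and the 10 genes with the most members; other sites were picked after their values were seen, and 2 sites that the rule names are not reported here. Of 219 list names 217 matched the annotation, and 16 lists were read, 4 of which held no member. Alternatives covered scaling, pseudocount, filter, measure, merging, peak threshold, distance, test, weights, covariates, replicate block, single livers and collections.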

Additional observations from a re-analysis of the deposited data

Results flagged for a closer look

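A liver was looked at again where its value stood clear of the rest of its class by Dixon's criterion, which flags about 1 group in 20 by chance; 15 of 176 groups met it. STAT5_High replicate 4 accounted for 9 of them. It had the fewest peaks of its class (18673), the highest scaled pileup of its class near Cyp7b1 (5.04), Igf1 (5.31), Phlda1 (2.65), Ly6f (4.0, at 75139416 on chromosome 15) and 9030619P08Rik (7.96) and at 2 Minpp1 sites (0.654 and 1.08), and the lowest at the Ghr site farthest from that gene (0.692). Other STAT5_High livers stood highest in Pecam1 (replicate 2, 0.868) and in Amdhd1 beside Hal (replicate 1, 0.648). Among STAT5_Low livers the highest values that stood apart were replicate 7 in Clec16a (0.985), replicate 10 in Eps15 (2.77), replicate 6 near Wdr72 (0.940) and replicate 10 near Ly6f (1.18).

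The class difference itself differed between collections at 4 sites by limma's F-test of the interaction, with adjusted p of 0.0469 in Zbtb20, 0.0469 in Il23r, 0.0307 at Saa1 and 0.0307 in Plcg2. The values by collection are given in the report, and at each site the largest of the 3 differences was that of G92, which holds 5 livers.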

How the results depend on the processing

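Counts are given as members higher in STAT5_High and higher in STAT5_Low, with 627 and 293 as reported. Scaling by tag depth alone gave 410 and 26, and fold enrichment 334 and 74. The STAT5_Low count was 185 with median-of-ratios factors, 117 after quantile normalisation, 79 after cyclic loess, 190 with an exact Wilcoxon test, 595 with sample weights, 161 with tags and 137 with peak number as a term, while the STAT5_High count stayed within 1.5 times of 627 in each of these. Leaving out 1 liver gave 521 to 714 and 153 to 498; the STAT5_Low count was 498 without STAT5_High replicate 1, 164 without replicate 3, 153 without replicate 5, 185 without STAT5_Low replicate 1 and 170 without replicate 3. Leaving out G74A gave 374 and 59, G92 453 and 130, and G99 438 and 104. The pseudocount, the filter on low sites, single-peak regions, a collection term, a 5 kb distance, merging at 100 bp and a stricter peak threshold gave 467 to 652 and 199 to 390. Within G74A alone the counts were 146 and 13, and within G92 94 and 5.

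Of the alternatives chosen after seeing the data, division by the median over all fitted sites gave 739 and 98, and defining membership over 17 livers without STAT5_High replicate 4 gave 824 (8.24%) and 273 (2.73%) of 9999 sites. The count of sites whose class difference differed between collections was 4 as reported, 0 with tag depth alone, 2 after cyclic loess, 2 without the lowest 25% of sites, 1 with fold enrichment and 0 to 10 without single livers. The cause of these shifts was not tested.

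By fold enrichment 8 sites changed sign: Igf1 87347920 (-0.20), Prlr 10132077 (-0.10) and 10155302 (-0.045), Ccbp2 121812600 beside Cyp8b1 (0.12), Hlf 90219098 (0.086), Fgg 82824009 (-0.50), Phlda1 111018676 (-0.10) and 111032365 (-0.16), all as log2 differences. The largest-change sites kept their call in 498 of 501 values on the STAT5_High side and 444 of 497 on the STAT5_Low side.

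With the replicate number as a block over replicates 1 to 8 of each class, 665 and 359 members were called, against 560 and 226 in the same livers without the block. Correlations of same-numbered livers ran from -0.10 to 0.35, and 4 of 8 livers, replicates 1, 2, 4 and 8, correlated best with their own number. Of these, replicates 1, 2 and 8 shared a collection between the classes, and replicates 3 to 7 did not. The numbers were not taken to pair the livers. Depth limits the weaker members, since the lowest summits held 7 to 12 reads, and a site with no call may still differ.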
